A study of Homo sapiens with 7 samples.

Results

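The 2 libraries of ARID1A-/- line 1 were set against the 2 libraries of ARID1A-/- line 2, which makes 4 of the 7 RNA-seq libraries of the series. Both lines are titled as ARID1A mutants of NGP, an established line of human neuroblastoma cells in which MYCN is amplified, and both carry the label ARID1A-/-. The groups therefore share the genotype that the labels give, and the comparison asks how far 2 lines with one label resemble each other. All cells, including the control NGP cells (2 libraries) and the ARID1A+/- line (1 library), were grown in RPMI medium with 10% fetal bovine serum and 0.5 ug/ml puromycin. Each line has a first library from a SMARTer Universal Low Input kit and a repeat from a KAPA mRNA HyperPrep kit, so every comparison was made within kits. The labels do not say how ARID1A was mutated, whether a line is 1 clone, or whether its 2 libraries came from separate cultures. The p-values then measure only how far these libraries spread, and that spread may be technical. A difference between the lines cannot be told apart here from one between any 2 clones or cultures of such cells. Of the 28517 entries of the tables, 14477 had a mean RPKM (the count scaled by the length of the entry and the total of the library) of at least 0.5 over the 4 libraries and were tested.

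ARID1A is the DNA-binding subunit that defines the BAF form of SWI/SNF, a remodelling complex that moves nucleosomes with the energy of ATP and keeps enhancers and promoters open. Neuroblastoma arises from the sympathoadrenal branch of the neural crest. Its cells can occupy an adrenergic state, held by transcription factors of sympathetic neurons, or a mesenchymal state with matrix and motility genes, and ARID1A loss is known in this tumour type for its link to the balance between them.

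The total count was 41401185 in line 1 and 40724353 in line 2 with SMARTer, and 31865626 and 28892053 with KAPA. ARID1A itself measured 16.7 and 17.2 RPKM in line 1 (SMARTer, then KAPA, here and throughout), 14.2 and 13.8 in line 2, and 22.3 and 22 in the control. Its level in line 1 was higher by 0.32 ± 0.12 on the log2 scale (fitted value ± SE), which did not pass (edgeR adjusted p = 0.16). RNA level does not check a mutation that leaves the transcript in place. The label of neuroblastoma was checked against adrenergic markers. PHOX2A lay between 220 and 437 RPKM over the 4 libraries, HAND2 between 276 and 349, GATA3 between 83.8 and 154, and ISL1 between 30.7 and 52.2. Of the catecholamine enzymes among the markers, TH was near 0, at no more than 0.0632 RPKM in either line, and DBH, which differed between the lines, ranged from 0.0752 to 5.17. Among markers of other cell types, summed RPKM in the 4 libraries was 2.48 to 3.27 over 11 epithelial genes, 3.74 to 4.38 over 9 immune genes (CD3E and AIF1 among those at 0) and 0.306 to 1.09 over 6 endothelial genes (PECAM1 at 0). The 10 fibroblast genes summed to 224 and 246 RPKM in line 1, 65.3 and 61.9 in line 2, and 100 and 101 in the control, with FAP at 0 in the 4 libraries of the lines. Whether the fibroblast genes come from the tumour cells or from others was not tested.

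The lines differed in 1421 genes, 9.82% of the 14477 tested (edgeR quasi-likelihood test with kit as a block, Benjamini-Hochberg adjusted p under 0.05). Of these, 651 (4.5%) were higher in line 1 and 770 (5.32%) were higher in line 2. All 1421 had the same sign within both kits. A gene whose kits disagree rarely passes this test, so the agreement largely follows from the call. The difference was at least 2-fold for 905 of them and at least 8-fold for 172 (1.19% of genes tested), 98 higher in line 1 and 74 higher in line 2. The control level lay between those of the lines for 1026 of the 1421 genes. These genes were picked for a gap between the lines and the share over all genes was not counted, so this is a description. Among the 8-fold genes, the control mean was nearer line 1 for 64 of the 98 that were higher in line 1, and nearer line 2 for 51 of the 74 that were higher in line 2. Without the kit block the count was 289 (2%), and in a fit over 6 libraries that took in the control it was 1815 (12.5%). When 1 library was left out of that larger fit, in which the lone library is assumed to vary like the other groups, it was 1991 (13.8%) without line 1 SMARTer, 2567 (17.7%) without line 1 KAPA, 675 (4.66%) without line 2 SMARTer and 652 (4.5%) without line 2 KAPA. The number of genes called in the fit over 4 libraries and in each of these 4 fits was 434.

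The largest differences were of the kind in which 1 line had almost no reads. TRIM21, the cytosolic antibody receptor and ubiquitin ligase, stood at 11.7 and 17.5 RPKM in line 1, 0.0127 and 0.0179 in line 2, and 11.5 and 7.25 in the control. Summed over kits it had 2005 counts in line 1 and 2 in line 2, a ratio of 982 (95% exact binomial interval 271 to 8110, counting error only). Line 2 is the group that stands away from the control here, and the ARID1A+/- library was also at 0.

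The same order, with line 2 far below both line 1 and the control, held for another 8 of the 12 named genes higher in line 1. EFS, a docking protein of the Cas family, measured 11.3 and 9.06 RPKM in line 1, 0.00787 and 0.0333 in line 2, and 10.6 and 7.25 in the control. HSD17B12, the ketoacyl reductase that elongates long-chain fatty acids, measured 9.25 and 9.09 in line 1, 0.115 and 0.0648 in line 2, and 9.01 and 11.3 in the control. FGF13, an intracellular FGF homologue that binds sodium channels, measured 5.28 and 8.62 in line 1, 0.0425 and 0.0799 in line 2, and 19.5 and 12.5 in the control. The count ratios between the lines were 576 for EFS, 100 for HSD17B12 and 120 for FGF13. SIMC1 (ratio 359), TMEM119 (161) and CPXM1 (148), a secreted carboxypeptidase-like protein, followed the same pattern. So did RDM1, a RAD52 motif protein with 0 counts in line 2, which was at least 45.7-fold higher in line 1 against a floor of 3 counts over both libraries. CSAG1, a cancer-testis gene, was also at 0 in line 2 and at least 33.0-fold higher in line 1, but at 0.575 and 2.16 RPKM it was below the control's 7.05 and 6.63. Its call was lost without line 2 KAPA (adjusted p = 0.052).

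For the other 3 of the 12, line 1 is the group whose RPKM stands far from the control. TRIM58, a ubiquitin ligase known from the maturation of red cells, measured 3.04 and 3.55 RPKM in line 1, 0 in both libraries of line 2, and 0.064 and 0.0254 in the control. With 1539 counts against 0 it was at least 502-fold higher in line 1. In the fit over 6 libraries TRIM58 was also lower in line 2 than in the control (edgeR adjusted p = 0.029), though the control itself was near 0. HDHD3, a hydrolase of the haloacid dehalogenase family, measured 2.21 and 2.35 in line 1 and 0 in line 2 (at least 106-fold), and 0.153 and 0.021 in the control. NUDT16, a Nudix hydrolase of inosine nucleotides, measured 2.80 and 2.62 in line 1, 0.0181 and 0.0102 in line 2 (ratio 189), and 0.145 and 0.0121 in the control. The ARID1A+/- library was at 0 for TRIM58, HDHD3 and NUDT16.

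In the opposite direction, 7 of the 12 named genes were close to silent in line 1 and present in the control. ARMCX5, of the X-linked armadillo repeat family, had 0 counts in both libraries of line 1 and 6.04 and 6.79 RPKM in line 2, against 4.54 and 5.56 in the control, and was at least 459-fold higher in line 2. MAP10, a microtubule-associated protein, also had 0 counts in line 1, with 1.46 and 1.59 RPKM in line 2 and 1.42 and 1.51 in the control (at least 196-fold). SPIN3, a spindlin of the family that reads histone methylation, had 1 count in line 1 and 2460 in line 2, at 6.14 and 6.26 RPKM, against 2.48 and 2.09 in the control (ratio 2510, interval 451 to 99300). AFF2, the gene silenced in FRAXE fragile X syndrome, had 0 counts in line 1 and 0.445 and 2.14 RPKM in line 2 (at least 382-fold). SLITRK1, a synaptic adhesion protein, had 0 counts in line 1 and 1.44 and 0.814 RPKM in line 2 (at least 145-fold). DTNA, which encodes a dystrobrevin, and PLA2G3, a secreted phospholipase, had ratios of 214 and 138.

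For the remaining 5 genes line 2 had the highest level, as it also did for SPIN3. SPIN3 was higher in line 2 than in the control by 1.39 on the log2 scale (fit over 6 libraries, edgeR adjusted p = 0.0081). The split from the genes above is not sharp, since the control levels of NLRP2 and FAM19A4 were near those of AFF2 (0.399 and 0.672 RPKM). NTS, which encodes the peptide neurotensin, measured 16.0 and 7.49 RPKM in line 2, 0.039 and 0 in line 1, and 0.0185 and 0.066 in the control (ratio 548). NLRP2, a NOD-like receptor, measured 8.89 and 9.65 in line 2, 0.0132 and 0.0171 in line 1, and 0.393 and 0.535 in the control (ratio 601). HS3ST4, a heparan sulfate sulfotransferase, measured 6.78 and 4.57 in line 2, 0.0151 and 0.0098 in line 1, and 0.222 and 0.307 in the control (ratio 445). FAM19A4, a chemokine-like secreted protein, measured 4.01 and 1.37 in line 2 0.0105 and 0.0137 in line 1, and 0.41 and 0.785 in the control (ratio 238). AJAP1, which binds adherens junctions, measured 2.84 and 2.62 in line 2, 0.0218 and 0.0284 in line 1, and 0.145 and 0.0493 in the control (ratio 108). For each of these 5 genes and for SPIN3, both libraries of line 2 were also above those of the control and the ARID1A+/- library. In the fit over 6 libraries line 2 was higher than the control for NTS, NLRP2, HS3ST4 and AJAP1 (edgeR adjusted p between 0.00042 and 0.0015), while for FAM19A4 that difference, 2.05 on the log2 scale, did not pass (adjusted p = 0.061). Against the same control libraries line 1 was lower for NLRP2 (-4.85, adjusted p = 0.0014), HS3ST4 (-4.24, 0.0077) and FAM19A4 (-5.50, 0.02). Of the 24 genes named here by size, 23 kept their call without each of the 4 libraries.

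**Figure D1:**
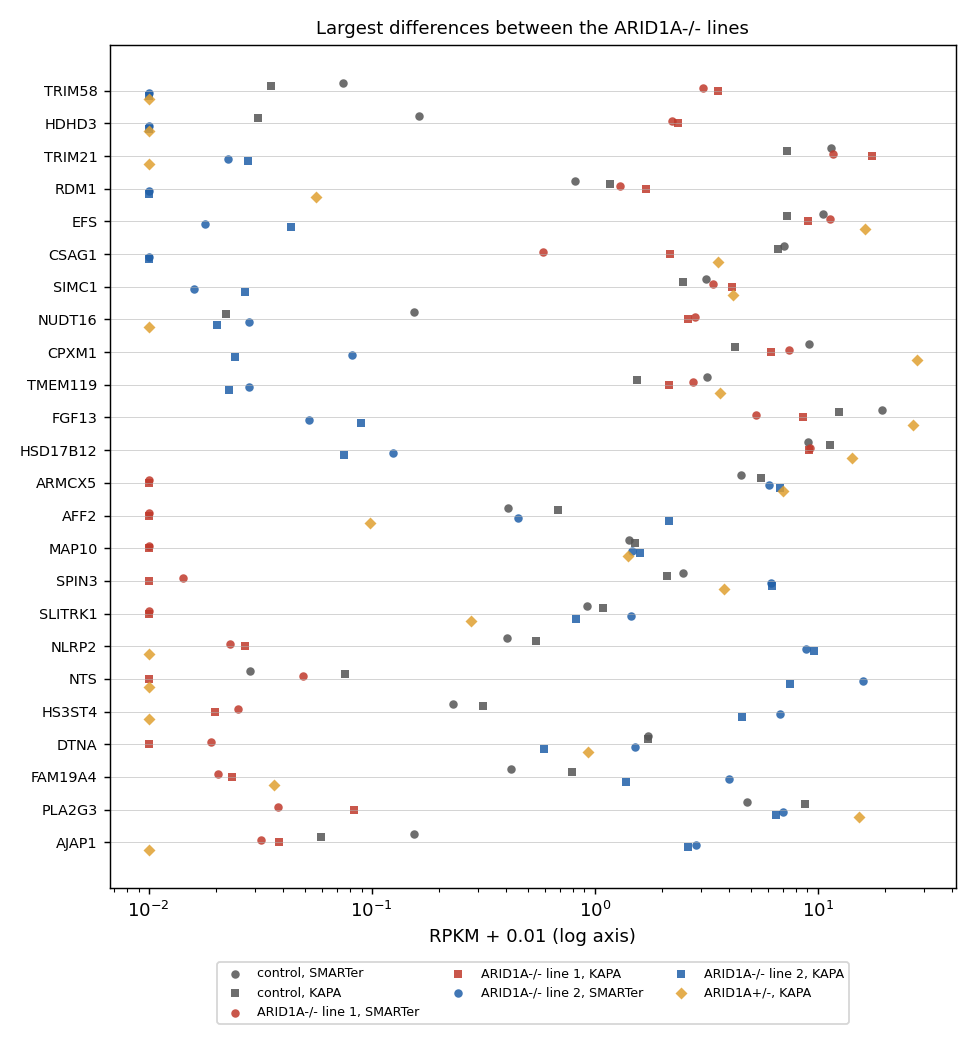
RPKM plus 0.01 on a log axis for the 24 genes with the largest differences between the lines, 1 point per library (circles SMARTer, squares KAPA, diamond the ARID1A+/- library), with control, line 1 and line 2 in separate colours. The control points of TRIM21 (11.5 and 7.25 RPKM) sit beside line 1, those of ARMCX5 (4.54 and 5.56) beside line 2, and those of TRIM58 (0.064 and 0.0254) far below line 1.

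By the criterion of 0 counts in both libraries of 1 line and at least 1 RPKM in both of the other, 12 entries were silent in 1 line. ARMCX5 and MAP10 were silent in line 1. HDHD3, RDM1 and TRIM58 were silent in line 2, with 7 entries of clone-like names that rested on no more than 10 counts each in line 1.

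A second pattern lay along the chromosomes. Each tested gene was placed by its symbol in the RefSeq gene order (GRCh38.p14, used for order only, since the files are on hg19), which 12915 genes (89.2%) allowed, and the median log2 difference was taken over 204 consecutive runs of at least 60 genes. In 19 runs the median lay 0.3 or more from 0. These 19 held 9.17% of the genes placed in runs and 29.2% of those called: 32.2% of their 1183 genes were called, against 7.88% in the other runs, whose medians lay between -0.29 and 0.14. The runs were picked by this difference, so the shares are a description. Of the called 8-fold genes, 14 lay in the 19 runs and 138 in the others.

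The longest stretch was the distal long arm of chromosome 1. There 6 adjoining runs from SUMO1P3 to PGBD2 (372 genes) were higher in line 1, with a median of 0.58 in the fit over both kits, 0.53 within SMARTer and 0.62 within KAPA, and 335 of the 372 genes on that side. Relative to the control, which both values share, the median was 0.19 in line 1 and -0.38 in line 2. Of its 136 called genes, 131 were higher in line 1. CENPF, a kinetochore protein, and SDHC, a subunit of succinate dehydrogenase, lie in it and were each higher in line 1, by 0.95 and 0.89 on the log2 scale. The call of CENPF was lost without either library of line 2 (adjusted p = 0.079 and 0.097), and that of SDHC without line 2 SMARTer (0.058).

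The other 13 runs were higher in line 2. The first run of chromosome 4, from ZNF595 (66 genes), had the median furthest from 0, -0.92, with 65 of 66 genes higher in line 2 and 40 called (60.6%). Its medians relative to the control were -0.89 in line 1, 0.06 in line 2 and -0.77 in the ARID1A+/- library, so line 2 is the one near the control. On chromosome 6 a run from DUSP22 to KIF13A (median -0.54) and 3 adjoining runs from HIST1H2AJ to SUPT3H (180 genes, median -0.55) were shifted. The 180 genes stood at -0.20 in line 1 and 0.35 in line 2 relative to the control. They include VEGFA, the angiogenic growth factor, at 29.6 and 15.2 RPKM in line 1 and 60.9 and 41.0 in line 2 (log2 difference -1.19 ± 0.16, edgeR adjusted p = 0.0094, and 0.065 without line 2 KAPA). The first run of chromosome 8 (median -0.65), a run of chromosome 12 ending at DYRK2 (-0.49), the last 2 runs of chromosome 12 (-0.48), the last run of chromosome 19 (-0.42), the first run of chromosome 7 (-0.33) and 2 runs of chromosome 1 from LIX1L to MTX1 (-0.36) made up the rest. DNA was not measured in these libraries, and what underlies the shifts was not tested.

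**Figure D2:**
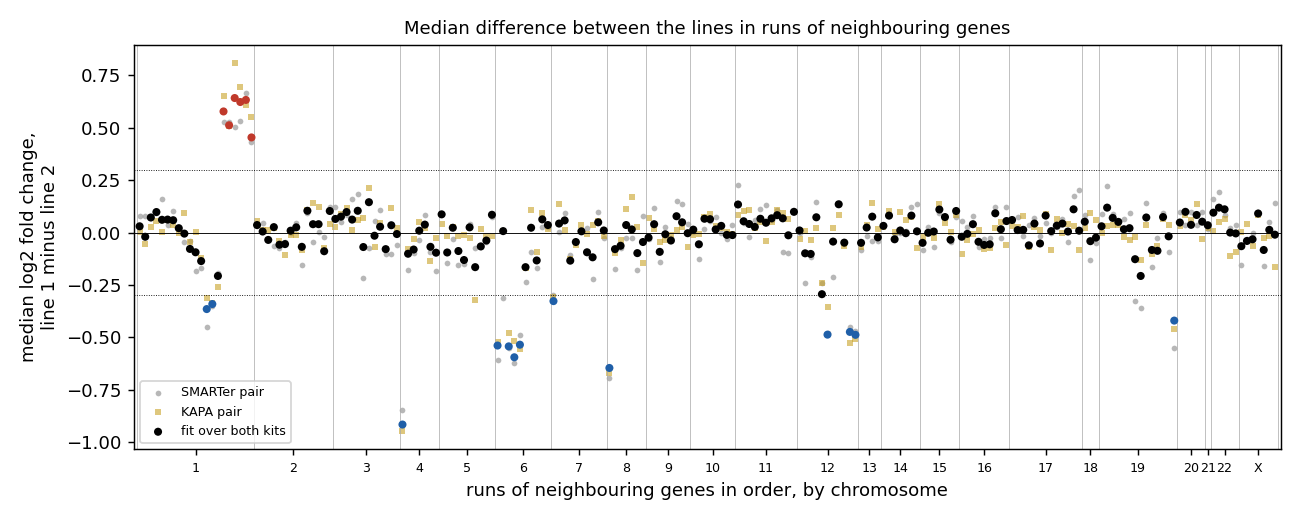
Median log2 difference (line 1 minus line 2) of 204 runs of neighbouring genes in chromosome order, from the fit over both kits (large points, coloured where at least 0.3 from 0) and within each kit (small points). The 6 coloured runs above 0 adjoin on chromosome 1 and the lowest point is the first run of chromosome 4 at -0.92.

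The list with the most calls in 1 direction was that of amino acid stress. When amino acids are short, the kinase GCN2 slows translation and the transcription factor ATF4 is made, which switches on transporters, synthetic enzymes and aminoacyl-tRNA synthetases through a response element that C/EBP and ATF proteins bind. Of the 44 listed genes 43 were tested, and 20 were higher in line 2 and 0 higher in line 1, 46.5% against the 9.82% over all genes (edgeR; 0 higher in line 1 with DESeq2 and limma too, and 1 at an unadjusted p under 0.05). The median difference was -0.58 (all genes 0.00), and 40 of 43 genes had the sign of line 2. Outside the 19 shifted runs 15 of 37 were higher in line 2, with a median of -0.54. The count was 4 without the kit block, 19 without line 1 SMARTer, 29 without line 1 KAPA, 5 without line 2 SMARTer and 10 without line 2 KAPA.

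Several called members hold a match to a motif of this element close to their start. Binding was not measured. The motif TGATGNAA was searched on both strands in the RefSeq promoter windows, from 250 bases before to 50 after each gene start. It was in 12 of the 36 listed genes that the table holds (33.3%), in 3.62% of all 35116 windows and in 1.51% of the 10138 windows of tested genes. The list is made of genes known for this response, so the share describes the list and not the difference between the lines. Windows of 7 called genes (ATF3, CHAC1, ASNS, SLC3A2, SLC7A1, AARS and MARS) and 5 that were not called (SLC38A1, NARS, IARS, CARS and TARS) held it. Shown are the 4 sites of called genes that lie wholly before the gene start, on the gene's strand, with the motif or its reverse complement in capitals (RefSeq, GRCh38.p14). The motif starts at -191 from the gene start in ATF3, at -209 in CHAC1, at -68 in ASNS and at -187 in AARS.
ATF3, chr1:212565190-212565249, plus strand: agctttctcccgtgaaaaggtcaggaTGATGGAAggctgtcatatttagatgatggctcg
CHAC1, chr15:40953236-40953295, plus strand: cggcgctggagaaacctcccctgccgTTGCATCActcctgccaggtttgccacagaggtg
ASNS, chr7:97872443-97872502, minus strand: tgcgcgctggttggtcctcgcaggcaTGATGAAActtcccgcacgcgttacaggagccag
AARS, chr16:70289660-70289719, minus strand: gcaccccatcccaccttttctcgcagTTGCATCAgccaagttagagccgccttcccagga

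The 4 members with the smallest p were GPT2, SESN2, SLC7A11 and SHMT2. GPT2, the mitochondrial alanine aminotransferase, measured 3.52 and 4.52 RPKM in line 1 and 11.5 and 14 in line 2, with the control at 11.8 and 13.2 (log2 difference -1.63 ± 0.15, edgeR adjusted p = 0.0034). SHMT2, which feeds serine carbon into the folate cycle, measured 31.9 and 32.8 in line 1, 87.0 and 69.9 in line 2, and 68.0 and 67.9 in the control (-1.23 ± 0.13, adjusted p = 0.0052). SHMT2 lies in the shifted run of chromosome 12 that ends at DYRK2. For both genes line 1 is the line below the control, and the 2 libraries of each line are close to each other.

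The stress regulator SESN2 had a difference that varied more with the kit, at 1.86 and 1.09 RPKM in line 1, 10.9 and 3.92 in line 2, and 5.27 and 3.29 in the control (-2.17 ± 0.23, adjusted p = 0.0050). SLC7A11, the cystine importer, measured 1.19 and 1.59 in line 1, 4.21 and 4.49 in line 2, and 2.85 and 1.28 in the control (-1.62 ± 0.17, adjusted p = 0.0050). Its call was lost in both fits that left out a library of line 2, where the difference was -1.82 without SMARTer and -1.31 without KAPA.

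Among the genes whose sites are printed above, ASNS, asparagine synthetase, measured 37.2 and 45.2 RPKM in line 1, 112 and 66.6 in line 2, and 80.1 and 50.6 in the control (-1.03 ± 0.23, edgeR adjusted p = 0.042). CHAC1, which degrades glutathione, measured 1.36 and 0.764 in line 1, 9.29 and 2.77 in line 2, and 3.91 and 1.34 in the control (-2.30 ± 0.32, adjusted p = 0.011). AARS, the alanyl-tRNA synthetase, measured 50.9 and 59.4 in line 1 and 78.0 and 92.1 in line 2 (-0.58 ± 0.12, adjusted p = 0.039). ATF3, a stress-induced factor of the ATF family, differed by -1.24 ± 0.16 (adjusted p = 0.0087, and 0.079 without line 2 SMARTer). ATF3 lies in the stretch of chromosome 1 whose median is higher in line 1, so its own direction is the reverse of its neighbours'. Without line 2 SMARTer the adjusted p was 0.22 for ASNS and 0.15 for AARS, and without line 2 KAPA it was 0.074 and 0.22, while CHAC1 kept its call without each library.

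ATF4 itself was at 158 and 119 RPKM in line 1, 245 and 171 in line 2, and 226 and 139 in the control, a difference of -0.54 ± 0.12 (edgeR adjusted p = 0.049). The adjusted p was 0.075 without line 1 SMARTer, 0.23 without line 2 SMARTer and 0.29 without line 2 KAPA. The synthetase IARS, whose window also holds the motif, was at 56.2 and 67.6 in line 1 and 63.6 and 71.5 in line 2 (-0.09 ± 0.12, adjusted p = 0.71). EPRS, ALDH18A1 and WARS were the 3 genes with the sign of line 1, and none was called. ATF4, IARS, EPRS, ALDH18A1 and WARS were picked with their values in view. The unfolded protein response, which shares ATF4 but has other sensors in the endoplasmic reticulum, had 0 of 15 genes called either way and a median of 0.06 (edgeR; 0 also without the kit block and with limma, 1 with DESeq2, 5 at an unadjusted p under 0.05, and 3 higher in each line without line 1 KAPA).

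**Figure D3:**
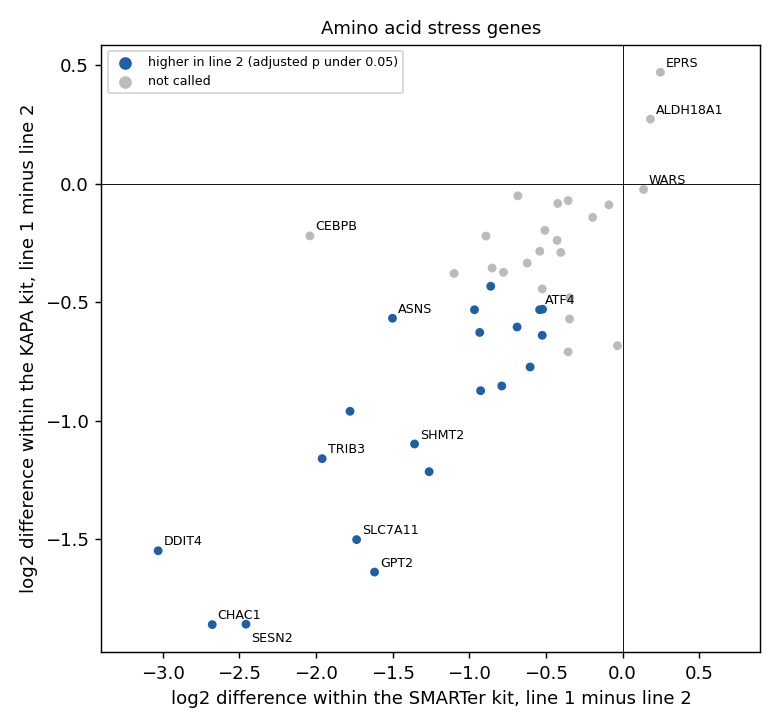
Log2 difference between the lines (line 1 minus line 2) for 43 amino acid stress genes, within the SMARTer kit on the horizontal axis and within the KAPA kit on the vertical axis, with genes called higher in line 2 coloured. All 20 called genes lie below 0 in both kits, and EPRS and ALDH18A1 lie above 0 in both.

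HOX genes record position along the body axis and are classical targets of chromatin regulators. Of 39 genes 17 were tested, and 8 were higher in line 1, 0 higher in line 2 and 9 not called (47.1% called against 9.82% over all genes, median 1.02; edgeR, with 0 higher in line 2 also by DESeq2, limma and at an unadjusted p under 0.05). HOXD13 measured 13.1 and 21.2 RPKM in line 1, 2.85 and 3.53 in line 2, and 5.98 and 8.65 in the control (2.43 ± 0.19, edgeR adjusted p = 0.0019). HOXD10 measured 14.1 and 11.6 in line 1, 2.55 and 1.82 in line 2, and 6.44 and 3.29 in the control (2.61 ± 0.20, adjusted p = 0.0020). HOXD11 measured 13.8 and 10.4 in line 1, 2.80 and 1.17 in line 2, and 6.37 and 2.48 in the control (2.74 ± 0.27, adjusted p = 0.0043). For these 3 neighbours of the HOXD cluster line 1 was above the control and line 2 below it in each kit.

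HOXA5 measured 1.24 and 3.28 RPKM in line 1 and 0.148 and 0.230 in line 2, near the control's 0.470 and 0.198 (3.50 ± 0.38, edgeR adjusted p = 0.0052; 0.073 and 0.081 without line 2 SMARTer and KAPA). HOXA6, HOXA7, HOXD4 and HOXC6 were the other 4 called, and each lost its call without line 2 KAPA (adjusted p = 0.093, 0.086, 0.096 and 0.15), as HOXA7 and HOXD4 did without line 2 SMARTer (0.092 and 0.062). Not all of the HOXD cluster differed by the test: HOXD9, next to HOXD10, was at 11.4 and 9.62 in line 1 and 14.7 and 8.87 in line 2 (-0.09 ± 0.19, adjusted p = 0.82). Without the kit block 3 HOX genes were called higher in line 1. Leaving out line 1 SMARTer, line 1 KAPA, line 2 SMARTer and line 2 KAPA gave 10, 8, 6 and 3, and in the fit without line 1 KAPA 1 HOX gene was higher in line 2.

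Of 18 tested mesenchymal effectors 6 were higher in line 1, 1 was higher in line 2 and 11 were not called (38.9% called against 9.82% over all genes, median 0.39). Of 24 collagen and basement membrane genes 9 were higher in line 1, 1, NID1, in line 2, and 14 were not called (41.7%, median 0.26), with 12 signs in each direction. TIMP1, an inhibitor of matrix metalloproteases, measured 9.65 and 7.5 RPKM in line 1, 0.012 and 0.187 in line 2, and 5.57 and 4.36 in the control (6.65 ± 0.72, edgeR adjusted p = 0.0052). S100A11, a calcium-binding protein, measured 5.25 and 23.8 in line 1, 0.0413 and 0.291 in line 2, and 1.93 and 10.8 in the control, and was at 0 in the ARID1A+/- library (6.47 ± 0.42, adjusted p = 0.0013). Line 2 lay far below the control for both genes.

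LGALS1, galectin-1, behaved differently relative to the control: it was at 99.3 and 86.0 RPKM in line 1, 4.05 and 8.87 in line 2, and 10.1 and 7.48 in the control (3.97 ± 0.37, edgeR adjusted p = 0.0034). MMP2, a gelatinase, measured 47.4 and 57.6 in line 1, 15.5 and 13.3 in line 2, and 23.1 and 26.4 in the control (1.91 ± 0.15, adjusted p = 0.0021). IGFBP3, which binds insulin-like growth factors, was the effector higher in line 2, at 62.4 and 55.4 against 16.7 and 17.2 in line 1 and 5.13 and 1.27 in the control (-1.75 ± 0.13, adjusted p = 0.0016). Its call was lost in the fits without line 2 SMARTer (0.061) and without line 2 KAPA (0.25).

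COL1A1, a chain of fibrillar collagen, measured 156 and 171 RPKM in line 1, 30.3 and 19.9 in line 2, and 60.2 and 62.6 in the control (2.77 ± 0.20, edgeR adjusted p = 0.0015). LUM, the collagen-binding proteoglycan lumican, measured 17.1 and 17.3 in line 1, 3.25 and 3.42 in line 2, and 2.04 and 1.72 in the control (2.41 ± 0.18, adjusted p = 0.0018). COL3A1 (2.36 ± 0.20) and the proteoglycan BGN (3.51 ± 0.42) were higher in line 1 as well. COL1A1, LUM and COL3A1 are also on the fibroblast marker list, of which 4 of 7 tested genes were higher in line 1 (57.1%). Over all genes 4.5% were higher in line 1. The summed level of the fibroblast list given above is not separate from these genes. COL1A1 alone made up 156 of the 224 RPKM in line 1 with SMARTer and 171 of the 246 with KAPA. Left-out libraries gave 5, 8, 4 and 5 effectors and 10, 11, 6 and 8 matrix genes higher in line 1 (line 1 SMARTer, line 1 KAPA, line 2 SMARTer, line 2 KAPA), and without the kit block the counts were 4 and 3.

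Of 15 mesenchymal transcription factors 1 was higher in line 1 (CREG1) and 1 in line 2 (ZNF217, -1.40 ± 0.17, edgeR adjusted p = 0.0067), with a median of -0.27 (13.3% called against 9.82% over all genes). CREG1 lies in the chromosome 1 stretch that was higher in line 1, and its call was lost without either library of line 2 (adjusted p = 0.17 and 0.11). Of 5 tested factors of epithelial to mesenchymal transition 1 was called, SNAI1, at 15.8 and 22.2 RPKM in line 1, 8.06 and 3.37 in line 2, and 20.7 and 17.9 in the control (1.86 ± 0.39, adjusted p = 0.038, and 0.064 without line 2 KAPA).

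**Figure D4:**
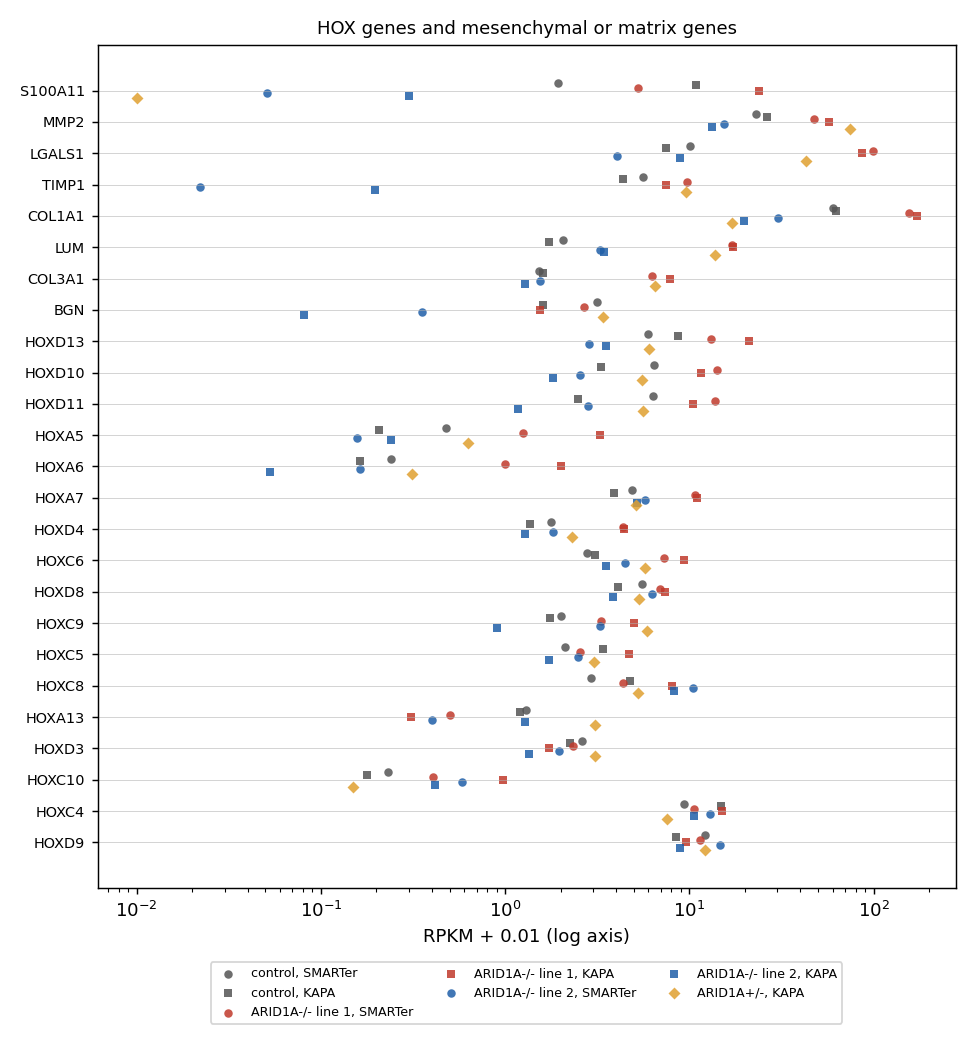
RPKM plus 0.01 on a log axis for the 17 tested HOX genes and for 8 mesenchymal or matrix genes, 1 point per library, with symbols as for the 24 genes of largest difference. For HOXD13 line 1 (13.1 and 21.2) is right of the control (5.98 and 8.65) and line 2 (2.85 and 3.53) is left of it, while for TIMP1 the points of line 2 (0.012 and 0.187) stand alone at the left.

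Of 23 tested adrenergic transcription factors, 5 were higher in line 1, 0 were higher in line 2 and 18 were not called (21.7% called against 9.82% over all genes; edgeR, with 0 also by DESeq2, limma and at an unadjusted p under 0.05), and the median of the list was 0.09, with 13 signs higher in line 1 and 10 in line 2. EYA1, a phosphatase that acts with homeobox factors, measured 9.27 and 12.5 RPKM in line 1, 1.26 and 1.70 in line 2, and 2.40 and 3.87 in the control (2.92 ± 0.17, edgeR adjusted p = 0.00092). HAND1, a helix-loop-helix factor of sympathetic precursors, measured 221 and 173 in line 1, 75.5 and 34.3 in line 2, and 126 and 56.7 in the control (1.98 ± 0.19, adjusted p = 0.0040). TFAP2B measured 4.04 and 6.46 in line 1, 1.28 and 1.09 in line 2, and 1.24 and 1.13 in the control (2.15 ± 0.25, adjusted p = 0.0063). LMO1, a LIM-only cofactor linked to neuroblastoma risk, measured 8.76 and 13.9 in line 1, 3.29 and 2.89 in line 2, and 5.65 and 8.19 in the control (1.88 ± 0.26, adjusted p = 0.011). Line 1 exceeded the same-kit control for all 4 of these genes. GATA2, a zinc finger factor, was the fifth gene called and stood below the control in both lines, at 35.1 and 22.9 RPKM in line 1, 15.5 and 15.9 in line 2, and 64.1 and 43.5 in the control (0.90 ± 0.20, adjusted p = 0.042, and 0.19 without line 2 SMARTer). In the fits with 1 library left out the count higher in line 1 was 8 without line 1 SMARTer and 5 in the other 3, and 1 gene was higher in line 2 without line 1 SMARTer and 5 without line 1 KAPA.

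Of 16 tested genes for making and storing catecholamines, 6 were higher in line 1 and 1 in line 2 (43.8% called against 9.82% over all genes, median 0.10). DBH, which converts dopamine to noradrenaline, was at 1.38 and 5.17 RPKM in line 1, 0.116 and 0.0752 in line 2, and 0.407 and 0.0593 in the control (4.77 ± 0.58, edgeR adjusted p = 0.0074; 0.072 and 0.12 without line 2 SMARTer and KAPA). DDC, which makes dopamine, measured 47.2 and 38.4 in line 1, 18.5 and 19.1 in line 2, and 17.9 and 11.9 in the control (1.22 ± 0.16, adjusted p = 0.0086). MAOA, which degrades these amines, was the gene higher in line 2, at 13.7 and 21.1 against 8.04 and 8.41 in line 1 (-1.01 ± 0.19, adjusted p = 0.026, and 0.10 without line 2 KAPA). The count higher in line 1 was 1 without the kit block and 5, 3, 2 and 1 without line 1 SMARTer, line 1 KAPA, line 2 SMARTer and line 2 KAPA.

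Of 30 genes of neuronal structure and synapse, 3 were higher in line 1 and 4 in line 2 (23.3% called against 9.82% over all genes, median -0.06). MAPT, which encodes tau, measured 1.44 and 0.718 RPKM in line 1, 6.08 and 2.26 in line 2, and 2.65 and 0.947 in the control (-1.83 ± 0.19, edgeR adjusted p = 0.0050). NEFH, a neurofilament subunit, went the other way, at 68.7 and 78.6 in line 1, 26.3 and 40.5 in line 2, and 32.8 and 37.7 in the control (1.21 ± 0.16, adjusted p = 0.0099). The synaptic vesicle genes SYT1 and RAB3A and the neurofilament gene NEFL were also higher in line 2, and SYN2 and GAP43 in line 1. Without line 2 SMARTer the calls of SYT1 (adjusted p = 0.071), RAB3A (0.12), NEFL (0.56) and GAP43 (0.081) were lost, and without line 2 KAPA those of SYN2 (0.051) and NEFL (0.23), the latter also without line 1 KAPA (0.24). Of 29 axon guidance genes 2 were higher in line 1 and 1 in line 2 (10.3%, near the share over all genes). The ephrin receptor EPHA5 was higher in line 2, at 1.16 and 1.09 against 0.0777 and 0.0909 in line 1 and 0.624 and 0.649 in the control (-3.70 ± 0.30, adjusted p = 0.0022). The secreted guidance cue SLIT2 was higher in line 1, at 7.28 and 10.2 against 3.33 and 3.36 (1.41 ± 0.18, adjusted p = 0.0083). SEMA3C was the other guidance gene called, also higher in line 1, and its call was lost without line 2 SMARTer (0.082) and without line 2 KAPA (0.10). Of 3 tested Schwann cell and neural crest markers, PMEL and NGFR were higher in line 1 (66.7% called against 9.82% over all genes). The list summed to 12.2 and 9.12 RPKM in line 1, 4.75 and 2.98 in line 2, and 53.8 and 36.1 in the control.

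Signalling genes went both ways. Of 19 receptor tyrosine kinases and ligands 4 were higher in each line (42.1% called against 9.82% over all genes). IGF2, an insulin-like growth factor, measured 14 and 44.5 RPKM in line 1, 0.968 and 4.57 in line 2, and 14.1 and 9.76 in the control (3.60 ± 0.20, edgeR adjusted p = 0.00078, and 0.052 without line 2 SMARTer). FGFR2 measured 2.24 and 3.97 in line 1, 0.500 and 0.882 in line 2, and 3.53 and 4.27 in the control (2.21 ± 0.22, adjusted p = 0.0042). Line 2 was the low group for both of these genes. FGF13 and PDGFRA were the other genes higher in line 1, and VEGFA, EGFR, the ligand NRTN and its receptor family member GFRA1 were those higher in line 2. NRTN missed the test without line 2 SMARTer (0.12), and PDGFRA missed it without line 2 SMARTer (0.48), line 2 KAPA (0.10) and line 1 KAPA (0.16).

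In the Notch pathway 2 of 18 genes were higher in line 1 and 1 in line 2 (16.7% called against 9.82% over all genes). HES1, a repressor that Notch induces, measured 1.55 and 1.98 RPKM in line 1, 0.189 and 0.196 in line 2, and 0.507 and 0.526 in the control (3.21 ± 0.35, edgeR adjusted p = 0.0052). The ligand JAG1 was higher in line 1 (1.69 ± 0.33, adjusted p = 0.031, and 0.12 without line 2 KAPA) and the ligand DLL1 in line 2 (-1.51 ± 0.31, adjusted p = 0.036, and 0.15 without line 2 KAPA).

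In the Wnt list 3 of 21 genes, all secreted or surface proteins, were higher in line 1: the antagonist FRZB, DKK3 and the receptor FZD1 (14.3%, against 4.5% of all genes higher in line 1). FRZB measured 9.51 and 19.8 RPKM in line 1, 2.67 and 2.15 in line 2, and 17.5 and 15.6 in the control (2.55 ± 0.32, edgeR adjusted p = 0.0083). The call of DKK3 was lost without line 2 SMARTer (0.079) and that of FZD1 without either library of line 2 (0.10 and 0.13). In the TGF-beta and BMP list 4 of 19 genes were called (21.1% against 9.82%). LTBP1, which tethers latent TGF-beta to the matrix, was higher in line 1, at 1.19 and 3.55 against 0.247 and 0.567 (2.50 ± 0.25, adjusted p = 0.0041), and BMP7, ID3 and BMPR2 were higher in line 2. Those 3 calls were each lost without line 2 KAPA (adjusted p = 0.093, 0.17 and 0.17), those of BMP7 and BMPR2 also without line 2 SMARTer (0.14 and 0.19), and that of BMPR2 also without line 1 SMARTer (0.092).

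Of 29 BAF and PBAF subunits, 1 was higher in line 1 and 2 in line 2 (median 0.16), and the 10.3% called is near the 9.82% over all genes. SMARCA2, one of the alternative ATPases of the complex, measured 1.30 and 1.61 RPKM in line 1, 0.446 and 0.424 in line 2, and 0.294 and 0.417 in the control (1.77 ± 0.26, edgeR adjusted p = 0.013, and 0.056 without line 2 KAPA). SMARCC2, a core scaffold, measured 40.2 and 34.8 in line 1 and 64.9 and 63.9 in line 2 (-0.74 ± 0.14, adjusted p = 0.025). BRD7, of PBAF, measured 20.9 and 26.2 in line 1 and 32.9 and 41.9 in line 2, both below the control's 39 and 50 (-0.62 ± 0.13, adjusted p = 0.037). The calls of SMARCC2 and BRD7 were lost without line 2 SMARTer (0.069 and 0.12) and without line 2 KAPA (0.16 and 0.14).

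Of 36 cell cycle genes 1 was called (CENPF, in the shifted stretch of chromosome 1), 2.78% against 9.82% over all genes, with a median of 0.32 and 28 of 36 signs higher in line 1. At an unadjusted p under 0.05 there were 14, DESeq2 called 5 higher in line 1, and 20 were called higher in line 1 without line 1 KAPA. Of 47 ribosomal protein genes 0 were called (edgeR, median 0.13; 0 with limma, 1 with DESeq2, 9 at an unadjusted p under 0.05, and 1 higher in line 1 and 2 in line 2 without line 1 KAPA). Of 30 oxidative phosphorylation genes 2 were called, both in that stretch and SDHC among them (6.67% against 9.82% over all genes). The median was 0.21, with 26 of 30 signs higher in line 1. Outside the shifted runs 0 of 28 were called, with a median of 0.20 (edgeR, with 0 by limma, 1 by DESeq2 and 3 at an unadjusted p under 0.05). Of 21 p53 target genes 2 were higher in line 2 (9.52%, near the share over all genes), the apoptosis genes BBC3 and TNFRSF10B, and both calls were lost without line 2 SMARTer (adjusted p = 0.18 and 0.21). That of TNFRSF10B was lost as well without line 1 KAPA (0.055) and line 2 KAPA (0.26).

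**Figure D5:**
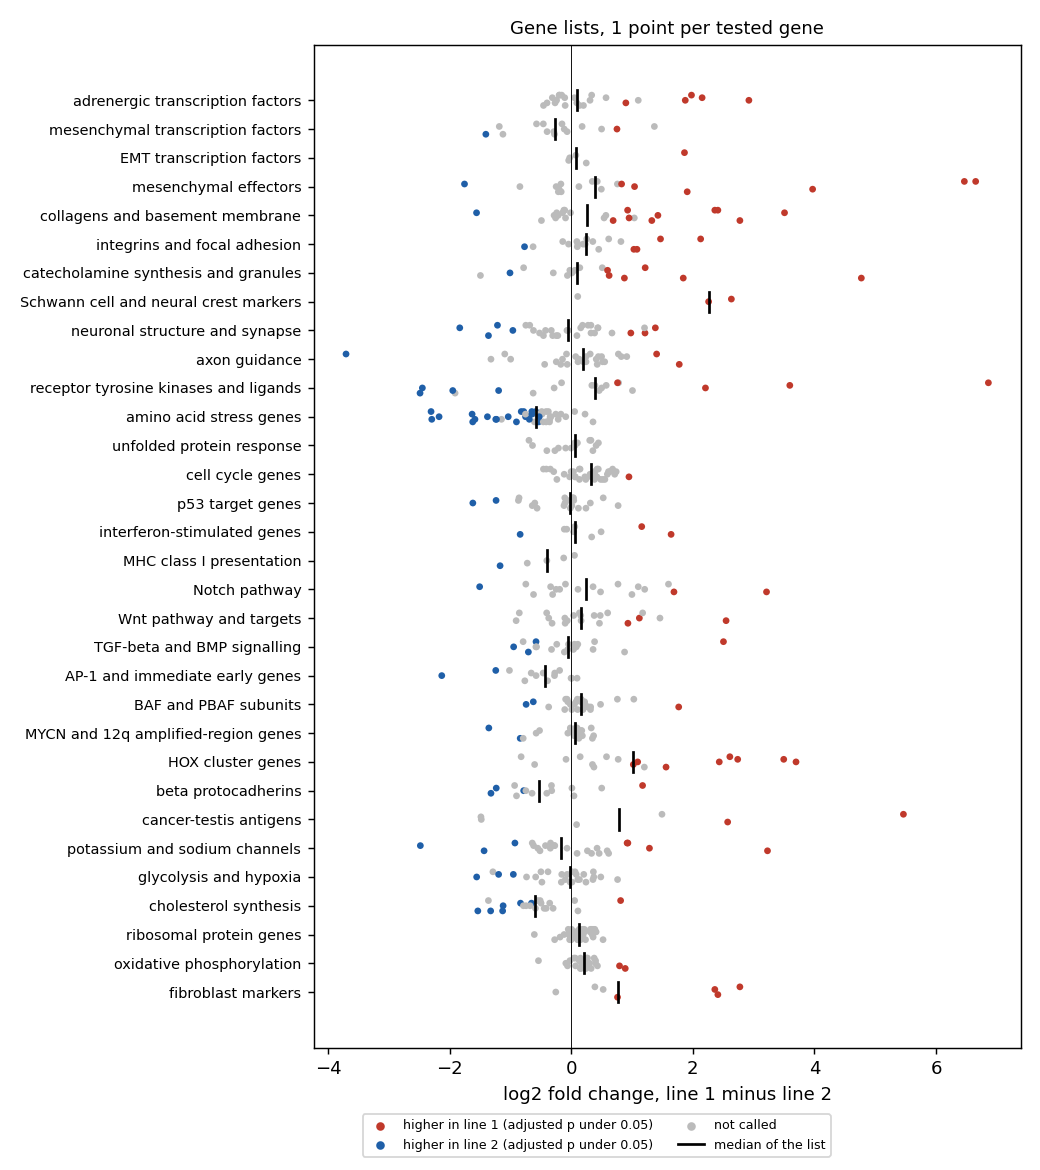
Log2 difference between the lines (line 1 minus line 2) of every tested gene in the lists with at least 3 tested genes, 1 point per gene, coloured by call, with a bar at the median of the list. The amino acid stress genes have their median at -0.58 and 20 coloured points left of 0, the HOX genes have theirs at 1.02, and the ribosomal protein genes have no coloured point.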

How the data were processed

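RNA-seq of 7 libraries was used, 4 of them in the tests. The submitters' processing notes name HISAT2 2.1.0 and the build hg19. Which program and annotation gave the counts is not given in the sources used here, nor whether strand was used, so overlapping and antisense genes are uncertain. The authors deposited a whole-number count and an RPKM value for each of 28517 entries per library; the RPKM could be recomputed from count, length and total to within 0.000501%. The total count was 24445301 to 43644361 per library.

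Counts were tested with edgeR 4.0.16 (R 4.3.3): TMM scaling, glmQLFit and glmQLFTest, line and kit as terms, Benjamini-Hochberg adjustment over 14477 genes, threshold 0.05. That leaves 1 residual degree of freedom per gene before the spread is shared across genes. The kit names pair the libraries: SMARTer minus KAPA deviations correlated at 0.45 between the lines. Libraries of a line differed beyond sampling noise (chi-square per gene 193 in line 1 and 147 in line 2). A standard error is the log2 fold change over the root of its F. The procedure was run on simulated counts of known change, with a smaller spread than the fit gave here. That run checks the working of the procedure and not the calls in these libraries. Values relative to the control come from a fit over the 6 control and ARID1A-/- libraries. Each library was left out of that fit and not of the fit over 4. A call lost there may come from the change of fit as well as from the missing library. In the full fit over 6 libraries, 6 of 110 named genes examined lost their call. Where 1 line had 0 counts, the fold is a lower bound against 3 counts over its 2 libraries; other count ratios carry a 95% interval for counting error only.

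Members and the 36 gene lists were chosen with earlier results of these data known. Named genes were ARID1A, the 12 called genes with the largest difference in each direction (same sign in both kits, mean RPKM of at least 1 in the higher line, no systematic or antisense names), then, from each list, members out of the 4 with the lowest p. Some genes that this rule picks are not reported here. Other genes named as the only members called, or beside a count, were chosen after their values were seen. Older symbols were matched through RefSeq synonyms; for tRNA synthetases the symbol with 1 added was taken. Alternatives were no kit block, 6 libraries, DESeq2's size factors and test (1.42.0), other filters, limma 3.58.1 on log2(RPKM + 1) or log2(RPKM + 0.1), quantile normalization and leaving out each library.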

Additional observations from a re-analysis of the deposited data

How the results depend on the processing

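Across the alternatives, 110 of the named genes were examined, which leaves out some genes named above. All 110 kept their direction in every setting that tested them. Counts of named genes given below are out of these 110. The count of genes called, 1421 (651 higher in line 1 and 770 in line 2), was 289 (159 and 130) with no replicate block, that is without the kit term, and all 289 were among the 1421. It was 2237 (1034 and 1203) with no filter on low values, which tests 21780 genes, 651 (289 and 362) among the 11572 genes with a mean RPKM of at least 2, and 882 (388 and 494) with limma on log2(RPKM + 0.1). Quantile normalization gave 490 higher in line 2. Leaving out 1 library gave 652 to 2567 in all, 316 to 1167 higher in line 1 and 328 to 1400 higher in line 2. The other settings stayed within 1.5 times: 1815 over 6 libraries (1380 shared), 1513 with DESeq2 (1295 shared), 1307 with limma on log2(RPKM + 1), 1139 with RLE size factors and 956 after quantile normalization. Of the named genes, 58 lost their call with no replicate block, 39 without line 2 SMARTer and 41 without line 2 KAPA, against 3 without line 1 SMARTer and 6 without line 1 KAPA; the cause was not tested. The median of chromosome 6 (-0.28) was -0.26 within KAPA, and those of chromosomes 4 and 12 (both -0.12) were -0.18 and -0.15 within SMARTer. The stricter motif TGATGCAA was in 7 listed promoters instead of 12. Runs of 30 genes, chosen after seeing the data, were shifted in 40 of 422 and held 9.35% of genes. With 2 libraries per line, and 1 after leaving one out, precision is limited by their number.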

Other observations

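Ion channels differed one by one. Of 24 potassium, sodium and calcium channel genes 4 were higher in line 1 and 3 in line 2 (29.2%, median -0.17). Over all genes the share called was 9.82%. SCN1A, a sodium channel, measured 2.04 and 6.40 RPKM in line 1, 0.280 and 0.568 in line 2, and 1.05 and 1.11 in the control (3.23 ± 0.22, edgeR adjusted p = 0.0015). CACNA1H, a low-voltage calcium channel, was higher in line 2, at 8.23 and 5.59 against 1.58 and 0.877 in line 1 and 9.01 and 6.87 in the control (-2.48 ± 0.18, adjusted p = 0.0017). KCNH2 was higher in line 1 (1.29 ± 0.15, adjusted p = 0.0059) and KCNJ8 in line 2 (-1.43 ± 0.18, adjusted p = 0.0083). KCNJ8 was at 0.0127 RPKM in the ARID1A+/- library. These 4 calls were kept without each library.

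Of 21 cholesterol synthesis genes 1 was higher in line 1 (CYP51A1) and 6 in line 2 (33.3% called against 9.82% over all genes). Their median was -0.59, with 18 of 21 signs higher in line 2. FDFT1, squalene synthase, measured 50.4 and 28.2 RPKM in line 1, 124 and 102 in line 2, and 29.9 and 65.0 in the control (-1.53 ± 0.18, edgeR adjusted p = 0.0072). FDFT1 missed the test without line 1 KAPA (0.053), line 2 SMARTer (0.33) and line 2 KAPA (0.14), and CYP51A1 missed it without line 2 SMARTer (0.075) and line 2 KAPA (0.13). The count higher in line 2 was 17 without line 1 SMARTer, 1 without line 1 KAPA, 1 without line 2 SMARTer, 0 without line 2 KAPA, 1 in the fit over 6 libraries and 0 without the kit block. In the control the KAPA library was the higher one for FDFT1, and in both ARID1A-/- lines the SMARTer library was. FDFT1 lies in the shifted run of chromosome 8. Of 27 glycolysis and hypoxia genes 3 were higher in line 2, ALDOC, VEGFA and HK2. The 11.1% called is near the 9.82% over all genes, and VEGFA lies in the shifted part of chromosome 6. ALDOC measured 21.6 and 8.27 in line 1, 59.4 and 27.7 in line 2, and 21.1 and 8.37 in the control (-1.55 ± 0.16, adjusted p = 0.0050). The call of HK2 was lost without line 1 SMARTer (0.07), line 2 SMARTer (0.15) and line 2 KAPA (0.19).

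Cancer-testis antigens, silent in most adult tissues, were uneven as well. MAGEC1 measured 25.4 and 37.1 RPKM in line 1, 4.34 and 6.49 in line 2, and 12.7 and 23.4 in the control (2.57 ± 0.14, edgeR adjusted p = 0.00068). MAGEA12 measured 0.684 and 4.12 in line 1, 0.0253 and 0.0713 in line 2, and 10.7 and 17.7 in the control (5.46 ± 0.46, adjusted p = 0.0027), though reads of near-identical MAGEA copies may be split between them. These were the 2 of 6 tested genes that were called (33.3% against 9.82% over all genes). Of 14 beta protocadherins, whose clustered promoters are chosen cell by cell, PCDHB15 was higher in line 1 and PCDHB2, PCDHB3 and PCDHB7 in line 2. That made 28.6% called, against 9.82% over all genes. All 4 calls were lost without line 2 SMARTer (adjusted p between 0.058 and 0.3) and without line 2 KAPA (between 0.075 and 0.23), that of PCDHB15 also without line 1 KAPA (0.23), and 0 were called without the kit block.

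In the remaining lists the share called is set against 9.82% over all genes. It was 27.8% for integrin and focal adhesion genes and 33.3% for interferon-stimulated genes. MHC class I presentation had 20%, and AP-1 and immediate early genes had 14.3%. Genes of the MYCN and chromosome 12 amplified regions had 9.09%, near the share over all genes. Of 18 integrin and focal adhesion genes TNS1, ITGB5, ITGA7 and ITGA4 were higher in line 1 and PXN in line 2, and TNS1 (2.13 ± 0.23, edgeR adjusted p = 0.0050) was the one called without each library. Of 9 interferon-stimulated genes IFIT1 and CMPK2 were higher in line 1 and STAT2 in line 2. TAPBP, in the shifted part of chromosome 6, was the 1 gene of 5 called in MHC class I presentation, ATF3 and DUSP4 were the 2 of 14 among AP-1 and immediate early genes, and AGAP2 and CPM were the 2 of 22 among genes of the MYCN and chromosome 12 amplified regions, all higher in line 2. Without line 2 SMARTer the adjusted p was 0.052 to 0.19 for these genes other than TNS1 and ITGA4, and ITGA4 was at 0.14 without line 2 KAPA. Of 2 epithelial and 2 immune markers tested 0 were called by edgeR, DESeq2 or limma and 0 had an unadjusted p under 0.05, and no endothelial or erythroid marker reached the filter.

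The ARID1A+/- library, which entered no test, had medians relative to the same-kit control of -0.77 in the first run of chromosome 4, -0.32 in the 180 genes of chromosome 6 and -0.36 in the first run of chromosome 8. In the 372 genes of distal chromosome 1 its median was 0.07.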
